A study of Mus musculus with 18 samples.

Results

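The response described here is that of naive CD4+ T cells to phorbol 12-myristate 13-acetate and a calcium ionophore, together called PI, measured by RNA-seq in 6 of the 18 libraries of the study. Its members are the 3 libraries of PI-treated naive cells (NPI) and the 3 libraries of resting naive cells (N0), compared over all Ensembl genes, of which 17240 had enough reads to be tested. The cells came from spleens of Tg4-H2u mice, male and female and 6 to 12 weeks old, which carry a transgenic T cell receptor (TCR) for the N-terminal peptide of myelin basic protein, so that most of their CD4+ T cells share 1 specificity. N0 mice had received PBS in the schedule used for tolerizing mice with peptide, the last dose 2 h before the spleen was taken, and their CD4+ T cells were enriched magnetically and lysed without culture. NPI cells were enriched from control mice in the same way and then kept in culture medium with PMA (20 ng/mL) and A23187 (2 μM) for 2 h. No naive cells cultured without PI were analysed here, so the effect of PI and that of 2 h in culture cannot be told apart. The cells are called naive after the labels, as cells of mice that had not been tolerized, and no sort on naive surface markers is described in the sources used here. The other 4 groups, used only where the naive PI response is compared, are naive cells 2 h after an injection of 80 μg of the 4Y peptide (NAg) and tolerized cells at rest (T0), after PI (TPI) and after peptide (TAg), again with 3 biological replicates each.

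PMA stands in for diacylglycerol and activates protein kinase C and the RasGRP exchange factors, which feed the ERK MAP kinases, AP-1 and NF-kB. The ionophore A23187 lets calcium into the cell, and calcium activates the phosphatase calcineurin, which sends NFAT to the nucleus. Together they drive much of the gene program that the TCR and CD28 drive, while bypassing the receptor, its kinases and its inhibitory receptors. PI is therefore widely used to find out which cytokines a T cell population is able to make.

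Total counts were 10758571 to 11204651 in N0 and 14895843 to 19878476 in NPI. Values are normalized counts, which are raw counts scaled by edgeR's TMM method to a common library size, listed in the order of replicates 1 to 3. Both groups expressed the defining genes of CD4+ T cells, and the summed normalized count of 10 such markers was 39485 to 40729 in N0 and 58081 to 64809.7 in NPI. Of these markers Cd28 alone changed by 2-fold or more, with means of 4260.1 in N0 and 26002 in NPI, and the median log2 fold change of the 10 was -0.05, so the sum follows Cd28. The 2 CD8 genes summed to 210.2 to 259.5 in N0 and 170.4 to 197 in NPI. Platelet markers summed to 190.2 to 732 in N0 and 70.5 to 86.3 in NPI. Neutrophil markers summed to 63.5 to 148 and 10.4 to 24.2, and in NPI Ngp, Ltf, Camp and Ly6g were at 0. The sums of the macrophage, B cell, dendritic, NK and erythroid markers were 882 to 1034, 498 to 2703, 415 to 937, 463 to 1000.5 and 45.9 to 228 in N0, and 575 to 831, 979 to 2159.6, 704 to 979.8, 563 to 869 and 28 to 86.3 in NPI. In bulk samples, fewer cells of a type and less RNA per cell cannot be told apart. Sex moved with the treatment: Y-linked genes had 29 to 34 reads in N0 and 5624 to 7873 in NPI, and Xist, transcribed from the inactive X chromosome of females, had 18647 to 36250 and 4 to 7. X- and Y-linked genes were therefore left out of ranked lists, and the counts were also computed with a sex term in the fit of all 18 libraries. Only T0 and TAg held libraries of both sexes. The term was thus estimated from tolerized cells alone, and whether it holds for naive cells was not tested.

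A large set of genes rose steeply after PI, and a set of similar size fell more mildly. Changes are log2 fold changes of NPI over N0, also where a gene is said to rise or fall by a value or to be at one, and ± gives the SE. This SE is approximate: it is the size of the log2 value divided by the square root of the F statistic of its test. A gene was called, and is said to have risen or fallen, at an adjusted p under 0.05 in edgeR's quasi-likelihood F test, a fold change of at least 2 and a mean normalized count above 50 in the higher group, with the Benjamini-Hochberg adjustment over all tested genes. By this rule 1736 genes (10.1% of those tested) rose and 1771 (10.3%) fell. A list member said not to pass was not called by the whole rule, and its adjusted p may still be under 0.05. Of the genes that rose, 698 rose at least 4-fold and 164 at least 16-fold, with a median log2 fold change of 1.73. Of those that fell, 249 fell at least 4-fold and 7 at least 16-fold, with a median of -1.40. The N0 and NPI libraries did not overlap for 1731 of the genes that rose and 1765 of those that fell, against 31.2% and 35.3% of all tested genes. The called genes were picked by a test of these same libraries, so this is a description and not further support. By the adjusted p alone, 28.6% of all tested genes were higher and 32.7% lower. Genes that rose took 13.9 to 14.5% of the reads of a library in N0 and 39.0 to 40.4% in NPI, and genes that fell took 7.99 to 8.26% and 2.03 to 2.15%. The counts depend on the scaling. With library totals in place of TMM, log2 fold changes shifted by a median of -0.578 and 945 genes rose and 4027 fell, 19.0% higher among called genes against 49.5%. With the sex term 1779 rose and 1684 fell.

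**Figure D1:**
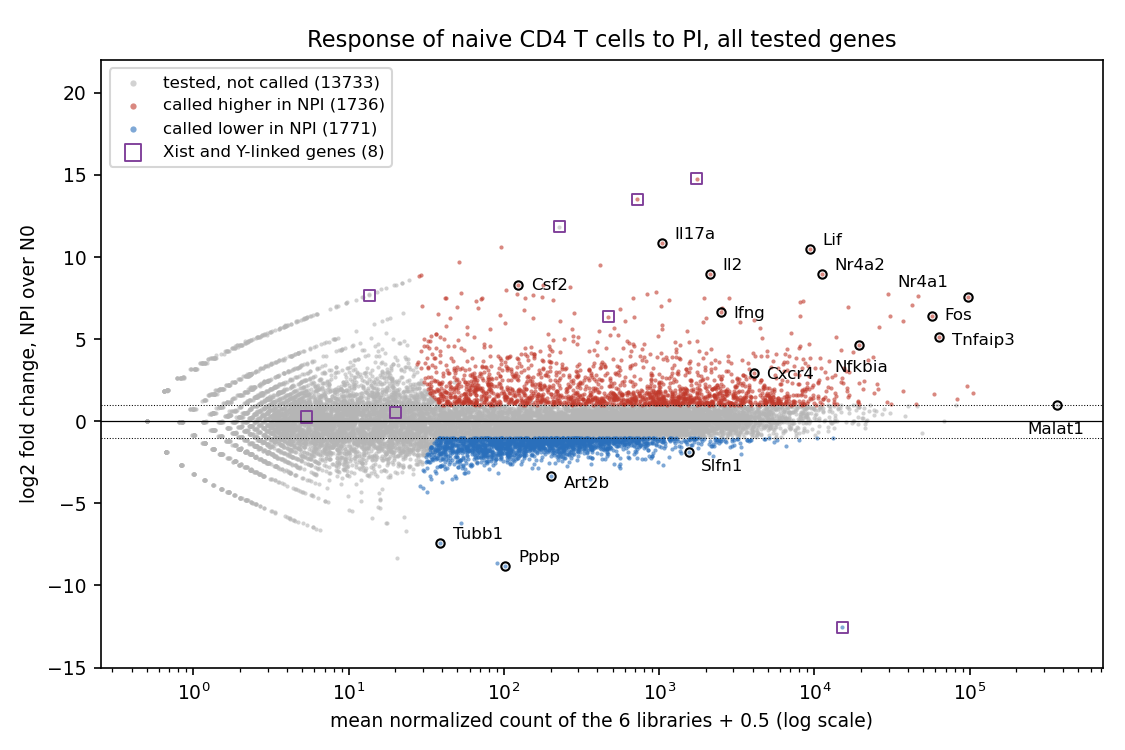
Log2 fold change of NPI over N0 (y axis) against the mean normalized count of the 6 libraries plus 0.5 (x axis, log scale) for each tested gene. The 1736 genes called higher reach far larger changes than the 1771 called lower, and squares mark Xist and the Y-linked genes, which follow the sex of the mice.

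Immediate early transcription factors showed some of the largest gains of reads, and Nr4a1, Fos, Fosb and Egr1 were among the 10 largest. Of 22 tested members of the EGR, NR4A and other immediate early factors, 19 rose (median log2 fold change 3.67). The other 3 were higher by the adjusted p alone. Of 17 AP-1 and related bZIP factors 13 rose and 4 did not pass, 1 of them higher by the adjusted p alone (median 2.39). The largest adjusted p among those that rose was 2.16e-05 and 9.7e-05 (edgeR). Nr4a1, an orphan nuclear receptor that follows the strength of TCR signals, gained more reads, not scaled for length, than any other called autosomal gene (NCBIM37, chr15:101097277-101105223), with normalized counts of 598, 1041 and 1493 in N0 and 193204, 190405 and 200192 in NPI. Its log2 fold change was 7.54 ± 0.32 (SE), and its N0 libraries spread more widely among themselves than its NPI libraries did. The paralogs Nr4a2 and Nr4a3 rose from 34.7, 48.0 and 50.6 to 20618, 23313 and 23007 (log2 fold change 8.97 ± 0.12) and from 287, 225 and 324 to 50929.6, 66020.5 and 61686 (log2 7.74 ± 0.19). Among AP-1 subunits, Fos, the partner of the JUN proteins, rose from 1853, 1022 and 1093 to 113307, 106893 and 118625 (log2 6.42 ± 0.33). Fosb rose from 947, 176 and 272 to 95868, 86554 and 96737 (log2 7.64 ± 0.72), and the first N0 library stood above the other two. The log2 fold changes of Fosl1 and Atf3, both also targets of ERK signaling, were 7.59 and 7.51, and that of Fosl2 was 5.68. JUN genes rose less, with log2 fold changes of 3.22 for Jun, 2.47 for Junb and 2.39 for Jund. Batf, which pairs with JUN and IRF4 in effector T cells, rose by 1.34, to 437 normalized counts, and with library totals the difference was 0.76 and below 2-fold. Egr1, a zinc finger factor downstream of ERK, rose from 588, 539 and 747 to 79548, 84966 and 89883 (log2 7.08 ± 0.15). Egr2 and Egr3, which drive negative regulators of TCR signaling, rose by 7.34 and 6.18, and Nab2, a corepressor of EGR proteins, by 1.71. Egr4 had 1 read in the 3 N0 libraries together and normalized counts of 104, 107 and 103 in NPI, a ratio of 310.3 (95% counting interval 55.3 to 12294). Irf4, which sets the extent of T cell expansion, rose by 6.95, and Myc, the driver of cell growth, by 4.58, from 611, 612 and 734 to 15112, 16956 and 14704.

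Inhibitors and subunits of NF-kB rose together. Of 19 tested genes 14 rose and 5 did not pass (median log2 fold change 2.07, largest adjusted p 5.62e-08 by edgeR). Tnfaip3, which encodes the ubiquitin-editing inhibitor A20, had normalized counts of 1967, 5314 and 3232 in N0 and 133099, 114135 and 125275 in NPI (log2 5.15 ± 0.30). Nfkbia, which encodes the inhibitor IkBα, rose from 1269.9, 1674 and 1510.3 to 38648, 37279 and 36242 (log2 4.65 ± 0.13). The nuclear IkB proteins Nfkbid and Nfkbiz rose by 6.09 and 3.72. Among the subunits, Rel, the subunit most tied to lymphocyte activation, rose most (log2 4.46 ± 0.10), followed by Nfkb2 (2.58), Nfkb1 (2.49), Relb (2.47) and Rela (1.82), and the SEs of these 4 were 0.09, 0.09, 0.09 and 0.07. Cyld, a deubiquitinase that restrains NF-kB, went from 3662, 3823 and 3930.0 to 2275, 2263 and 2420.0 normalized counts, a log2 difference of -0.71 that stayed below 2-fold.

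The starts of these genes were examined because PI acts through factors with known DNA motifs. The promoters of Il2, Tnf, Nfkbia and Nr4a1 are shown as the 250 bases before the start, 5′ to 3′ on the gene's strand, from RefSeq (GRCm38.p6). Il2 and Tnf are cytokine genes of the response, Nfkbia is a feedback inhibitor, and Nr4a1 gained the most reads. Capitals mark matches on either strand to the motifs searched, which here were the NFAT core GGAAA and the kB motif.
Il2, chr3:37125955-37126204, minus strand: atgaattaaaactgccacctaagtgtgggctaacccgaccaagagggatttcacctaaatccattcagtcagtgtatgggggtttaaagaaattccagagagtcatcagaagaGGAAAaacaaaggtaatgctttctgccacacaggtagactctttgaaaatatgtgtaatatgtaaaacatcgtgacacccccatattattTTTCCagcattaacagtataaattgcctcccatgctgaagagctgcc
Tnf, chr17:35202008-35202257, minus strand: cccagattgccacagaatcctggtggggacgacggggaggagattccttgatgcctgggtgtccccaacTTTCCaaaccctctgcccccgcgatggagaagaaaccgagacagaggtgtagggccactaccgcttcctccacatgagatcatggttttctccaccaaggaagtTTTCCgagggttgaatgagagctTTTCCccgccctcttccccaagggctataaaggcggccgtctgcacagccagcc
Nfkbia, chr12:55492648-55492897, minus strand: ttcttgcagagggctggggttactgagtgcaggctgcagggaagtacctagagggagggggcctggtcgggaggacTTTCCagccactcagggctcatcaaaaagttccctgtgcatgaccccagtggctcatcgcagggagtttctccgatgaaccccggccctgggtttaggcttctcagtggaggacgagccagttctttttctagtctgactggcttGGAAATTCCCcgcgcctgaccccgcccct
Nr4a1, chr15:101266596-101266845, plus strand: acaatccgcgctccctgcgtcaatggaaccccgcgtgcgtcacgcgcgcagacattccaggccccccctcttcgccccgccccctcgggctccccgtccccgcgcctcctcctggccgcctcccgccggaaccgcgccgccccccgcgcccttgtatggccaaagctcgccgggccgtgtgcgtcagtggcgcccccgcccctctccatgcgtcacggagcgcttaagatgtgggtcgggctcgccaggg

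The NFAT core stood at positions -137 and -47 of Il2 and at -181, -77 and -54 of Tnf, counted to the first base of each match. In Nfkbia the core stood at -174 and -29, and the second of these lay inside the only kB match, at -29 to -20. Nr4a1 held none of the letters searched in this window. Across the 13854 tested protein-coding genes with a window in the genome of the files' build (NCBIM37), the kB motif stood in 8.76% of windows, in 12.2% of those of genes that rose, in 16.1% of the 149 that rose at least 16-fold and in 7.34% of those that fell. The AP-1 motif TGANTCA was found in 4.60%, 5.17%, 10.1% and 4.33%, and the CRE motif TGACGTCA in 2.47%, 4.76%, 5.37% and 2.35%. Shares of both motifs were thus higher among genes that rose steeply than among all tested genes. The ETS motif CCGGAAGT ran the other way, at 4.88%, 3.40%, 1.34% and 6.67%. Some of these contrasts depend on the background. Over all protein-coding promoters, tested or not, AP-1 stood in 6.002%, more than among all genes that rose. ETS stood in 3.339% of them, close to the share of genes that rose. Over tested genes with a mean normalized count above 50, the AP-1 and ETS shares were 3.938% and 5.982%. The kB and CRE shares of genes that rose exceeded those of both backgrounds. The NFAT core, only 5 bases long, was in 54.6% of all tested windows, 55.6% of those of genes that rose, 64.4% of the 149 that rose at least 16-fold and 58.1% of those of genes that fell. For the EGR motif GCGTGGGCG the shares were 0.974%, 1.63%, 1.34% and 0.661%, for the serum response CArG box 1.16%, 1.5%, 2.01% and 0.661%, for the E-box CACGTG 7.87%, 9.25%, 8.05% and 6.55%, and for the NR4A motif AAAGGTCA 0.852%, 0.680%, 0.671% and 0.661%. These shares describe letters in the windows and were not tested.

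**Figure D2:**
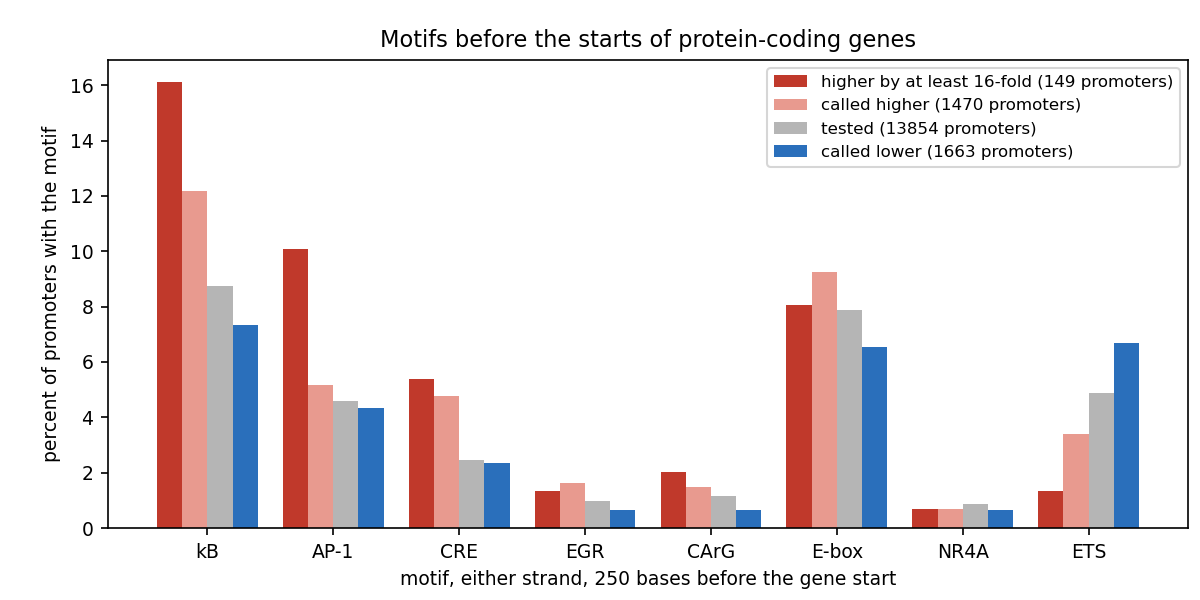
Percent of promoters (y axis, from 0) with each motif drawn (x axis) in the 250 bases before the start of protein-coding genes, for genes that rose at least 16-fold, all that rose, all tested and all that fell. The NFAT core is not drawn. The kB, AP-1, CRE and CArG bars are tallest for the genes that rose at least 16-fold, the last with 3 of 149 promoters, and the ETS bar is tallest for the genes that fell.

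Genes that changed steeply in either direction were more compact than tested genes as a whole. The 149 protein-coding genes that rose at least 16-fold had a median of 5 exons and 12598 bp from start to end, against 9 exons and 21826 bp over all tested genes, and a median exonic length of 2721 against 3567 bp. The AU-rich nonamer TTATTTATT, which marks unstable mRNAs, was present in the 3′ untranslated region of 22.2% of them, 10.3% of all protein-coding genes that rose, 6.42% of those that fell and 6.80% of those tested. Carriers named here include Il2, Tnf, Lif, Csf2, Il13, Il22, Cxcl2, Fos, Fosl2, Dusp1, Nfkbia, Tnfaip3 and Zfp36. Genes that fell had a median of 7 exons and 17176 bp from start to end, and the 223 of them that fell at least 4-fold had 5 exons, 13570 bp and an exonic length of 2910 bp, close to the genes that rose at least 16-fold.

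Most genes of the pathways that PI acts on were not called, and most genes of the feedback on them rose. Of 17 tested genes of the PKC, RasGRP and ERK input 3 rose and 1 fell (median log2 fold change 0.23). Of all tested genes 10.1% rose and 10.3% fell. A further 6 of the 17 were higher and 5 lower by the adjusted p alone. Those that rose were Bcl10 and Malt1, which with CARMA1 carry the PKC signal to NF-kB, and the kinase gene Prkcd, by 1.45, 1.22 and 1.33, and none of the 3 remained called with library totals. Ikbkg, on the X chromosome, fell by 1.25. Prkcq, which encodes PKCθ, went from 7091, 8919 and 7744 to 6404, 5231 and 6033 (-0.43), Rasgrp1 had a log2 difference of 0.23 (-0.35 with library totals), and Map2k1 of -0.47, all below 2-fold. Of 15 tested NFAT and calcineurin genes 2 rose and 1 fell, beside the same 10.1% and 10.3% of all tested genes. Orai1, the pore of the store-operated calcium channel, rose from 458, 663 and 615 to 4668, 4912 and 4731 (log2 3.04 ± 0.12), and Nfatc1, the inducible NFAT gene, rose by 1.30. Ppp3cb, a catalytic subunit of calcineurin, fell by 1.05. Rcan1, a calcineurin feedback inhibitor, went from 60.4, 53.2 and 60.5 to 104, 119 and 85.7, a log2 difference of 0.82. Against this, of 14 genes that dampen MAP kinases 13 rose and 1 did not pass (median 3.97, largest adjusted p 3.22e-05 by edgeR). Dusp8, a phosphatase of JNK and p38, had 2, 0 and 1 reads in N0 and 268, 349 and 481 in NPI, a ratio of 357 (95% counting interval 122 to 1734), and is uncertain because a second entry of the same name shares its exons. Dusp1, Dusp2, Dusp4, Dusp5, Dusp6 and Dusp14, also MAP kinase phosphatases, rose by 3.86, 3.22, 5.60, 4.08, 3.23 and 6.74. Spry1, an inhibitor of Ras signaling, rose from 46.6, 12.5 and 32.7 to 5568, 5438 and 5749 (log2 7.49 ± 0.41), and Spry4 and Spry2 by 6.45 and 3.09. The remaining gene of the list, Spred1, had a log2 difference of 0.92.

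Most TCR-proximal genes differed in small steps. Of 18 tested 3 rose, namely Ptpn22, a phosphatase that restrains LCK and ZAP70, by 2.87, the kinase gene Zap70 by 1.62 and the adaptor gene Lcp2 by 1.22. Of all tested genes 10.1% rose and 10.3% fell. A further 9 of the 18 were higher and 6 lower by the adjusted p alone, and with library totals 2 rose and 4 fell. The lowest was Themis, at -0.81, followed by Cd3g at -0.75. Cd4 itself was at 7059.8, 7281 and 6488 in N0 and 5095, 4604 and 5644 in NPI, so the libraries of the groups did not overlap although the log2 difference was only -0.44. Trac, the constant region of the TCR α chain, fell by 1.03, and it was below 2-fold with DESeq2, DESeq2 size factors, a fit of both groups alone, the replicate block, the sex term and without NPI replicate 1.

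By its median, the cytokine list rose the most of all lists. Of 21 tested 17 rose and 1 fell, with a median log2 fold change of 7.53, or 7.14 when genes with 3 reads or fewer in a group are set to a floor of 3 reads over the group, and a largest adjusted p of 3.21e-05 among them (edgeR). Il2, the growth factor of T cells (NCBIM37, chr3:37019445-37024881), had normalized counts of 10.9, 7.31 and 6.94 in N0 and 3878, 4870.2 and 4015 in NPI (log2 8.96 ± 0.41). Ifng, the cytokine of T helper 1 cells, rose from 77.3, 28.2 and 39.7 to 3945, 6032 and 4871 (log2 6.67 ± 0.54), and Tnf from 206, 138 and 220.1 to 13841, 16665 and 16967 (log2 6.39 ± 0.19). In all 3 the lowest NPI library was far above the highest N0 library. Lif, a cytokine of the interleukin 6 family, rose from 14.9, 9.40 and 14.9 to 17879, 20224 and 18025 (log2 10.47 ± 0.30), the largest log2 fold change among autosomal genes with more than 3 reads in N0. Cytokines of T helper 17 cells were close to absent at rest. Il17a had 1, 0 and 2 reads in N0 and 1568, 2297 and 2498 in NPI, a ratio of 2069.7 (95% counting interval 708 to 10039). For Il17f the reads were 0, 1 and 2 and 644, 877 and 985, a ratio of 815 (95% counting interval 279 to 3955). Il22 had no read in any N0 library and 189, 209 and 174 reads in NPI, at least 186-fold higher. These ratios are of normalized counts, and the intervals cover counting error only. The T helper 2 cytokines Il4 and Il13 had 2 reads each in N0 as a whole, with ratios of 211 (95% counting interval 58.1 to 1750.0) and 297 (95% counting interval 81.8 to 2455), and Il5, with none in N0 and 69, 49 and 50 in NPI, was at least 54.6-fold higher. Without NPI replicate 1 the NPI mean of Il5 was below the minimum level of a call. Il5 and Csf2 overlap genes on the opposite strand, and whether the counting used the strand is not given in the sources used here. Csf2, which encodes GM-CSF, had 2 reads in N0 and 209, 271 and 263 in NPI, a ratio of 363 with an upper counting limit of 2999. Il10, an inhibitory cytokine, rose from 2.97, 0 and 1.98 to 463, 582 and 535 (log2 8.19 ± 0.57), and Il21, which helps B cells, from 13.9, 2.09 and 5.95 to 1118, 1601 and 1346 (log2 7.49 ± 0.50). Il6 rose from 1.98, 2.09 and 0 to 181, 319 and 316. Il3 passed the adjusted p but not the minimum level, with 31, 55 and 44 reads in NPI and none in N0. Csf1, Lta and Tgfb1 were readily detected at rest and rose less, by 3.39, 2.20 and 1.86. Ltb, the partner of lymphotoxin α, was the cytokine gene that fell, from 3313, 2673 and 3112 to 1324, 1025 and 1115 (log2 -1.39 ± 0.14).

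**Figure D3:**
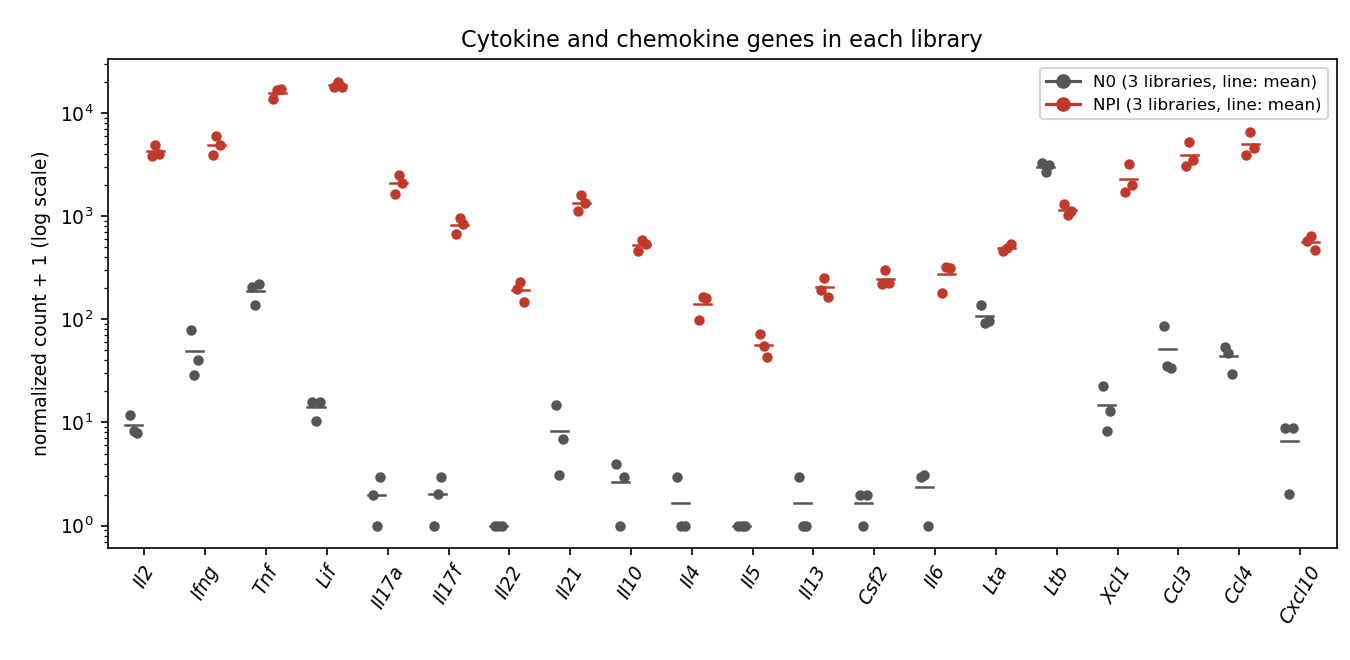
Normalized count plus 1 (y axis, log scale) of 20 cytokine and chemokine genes (x axis) in each N0 library (grey) and NPI library (red), with lines at the group means. The groups do not overlap for any gene shown, and Ltb is the gene that is lower in NPI, at a mean of 1155 against 3033.

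Membrane ligands and chemokines rose as well. Of 9 TNF superfamily ligands 6 rose, among them Tnfsf14 (LIGHT) by 4.58, Tnfsf11 (RANKL) by 3.94, Tnfsf9 (4-1BB ligand) by 3.76, Tnfsf8 (CD30 ligand) by 2.22 and Fasl, the death ligand, by 2.06. The X-linked Cd40lg, which licenses B cells and dendritic cells, rose from 767, 1179 and 961 to 8750.0, 10717 and 9265 (log2 3.31 ± 0.15). Tnfsf10, which encodes the death ligand TRAIL, fell from 384, 417 and 440.3 to 172, 181 and 196 (log2 -1.17 ± 0.13). Of 14 chemokines 8 rose and 6 did not pass (median 5.57, or 4.62 at the floor, largest adjusted p 0.0081 by edgeR). Ccl3 and Ccl4, which draw macrophages and effector T cells, rose from 85.2, 34.5 and 32.7 to 3091, 5289 and 3507 (log2 6.28 ± 0.34) and from 53.5, 45.9 and 28.8 to 3926, 6560.3 and 4592 (log2 6.87 ± 0.30). Xcl1, which draws XCR1+ dendritic cells, rose by 7.38, Cxcl10, a ligand of CXCR3, by 6.58 and Cxcl2, a neutrophil attractant, by 5.99. Ccl1 had 2 reads in N0 and 104, 176 and 104 in NPI, a ratio of 187 (95% counting interval 51.5 to 1553). Ccl5 rose least, by 1.29, and its adjusted p was 0.144 with the replicate number as a block and 0.0901 with library totals (edgeR).

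Activation receptors rose, costimulatory and co-inhibitory alike. Of 13 costimulatory and activation receptors 11 rose and 2 did not pass (median 2.61, largest adjusted p 2.51e-06 by edgeR). Cd69, the early activation antigen that keeps lymphocytes in tissue, rose from 591, 871 and 704 to 57869, 61009.6 and 63319 (log2 6.39 ± 0.18). Cd83, Slamf1, Tnfrsf9, Tnfrsf4 and Icos, receptors of activated T cells, rose by 4.81, 4.28, 2.94, 2.32 and 1.89. Cd28, the main costimulatory receptor, rose from 4289, 4247 and 4244 to 24859, 25462 and 27684 (log2 2.61 ± 0.13), and the adhesion receptor Cd44 by 2.61. Of 12 co-inhibitory receptors and ligands 8 rose and 4 did not pass (median 1.79). Ctla4, the competitor of CD28, rose from 596, 362 and 489 to 5715, 6285 and 6969.8 (log2 3.71 ± 0.21), Cd274, which encodes PD-L1, by 3.99 and Havcr2, which encodes TIM3, by 4.24. Pdcd1, Tigit and Lag3, further inhibitory receptors, rose by 2.33, 1.87 and 1.58 and reached means of 518, 235 and 111 normalized counts. Calls were lost for Lag3 with library totals (adjusted p 0.0569) and for Tigit with the replicate number as a block (0.0928, both edgeR). Among 18 cytokine receptors 8 rose and 2 fell. Il2ra, the high-affinity chain of the interleukin 2 receptor, rose from 416, 299 and 406 to 3946, 5089 and 4462 (log2 3.59 ± 0.24), and Il4ra, the receptor of interleukin 4, by 2.30. Il7r, which keeps naive cells alive, fell from 3654, 4714 and 4145 to 1761, 1994 and 1979 (log2 -1.13 ± 0.13), and Il27ra by 1.18. With the sex term the fall of Il7r was -0.93, below 2-fold.

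Genes of quiescence, naive identity and homing did not move as a group. Of 20 tested genes of naive identity and quiescence 6 rose and 1 fell (median 0.36), against 10.1% and 10.3% of all tested genes. With library totals 2 rose and 4 fell. Btg2 and Tob1, antiproliferative proteins that recruit mRNA deadenylases, rose from 3423, 3367 and 3316 to 26939.8, 27455 and 30684 (log2 3.07 ± 0.14) and from 273, 303 and 286 to 2371, 2284 and 2404 (log2 3.03 ± 0.12). Klf2, which maintains quiescence and the exit of T cells from lymphoid organs, rose from 3687, 2953 and 3378 to 10619, 8294 and 9077 (log2 1.48 ± 0.29), and was at 0.90 with library totals. Tcf7 and Lef1, factors of naive and memory cells, had log2 differences of -0.33 and 0.30, and Lef1 was at -0.27 with library totals. Slfn1, a Schlafen gene of quiescent cells, fell from 2353, 2257 and 2699 to 612, 682 and 703 (log2 -1.87 ± 0.19). Of 20 homing and egress genes 9 rose and 4 fell. The chemokine receptors Ccr7, for lymph node entry, and Cxcr4 rose by 1.61 ± 0.10 and 2.93 ± 0.43, the latter from 790.5, 1569 and 480.0 to 6598, 7043 and 7983. The oxysterol receptor gene Gpr183 and the G-protein regulators Rgs1 and Rgs16 rose by 3.07, 2.88 and 5.27. The integrin gene Itgb7 fell from 7169, 6083 and 6467 to 3258, 2727 and 3286 (log2 -1.09 ± 0.11), and the sphingosine phosphate receptor gene S1pr4 by 1.23. S1pr1, the receptor that T cells follow out of lymph nodes, was at 6309.9, 6339.9 and 6261 and 5163, 3977 and 5955, a log2 difference of -0.32. With the sex term S1pr4 was at -0.70, below 2-fold.

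Several lineage factors rose from low levels. Of 15 tested helper lineage factors 7 rose and 1 fell (median 0.97, largest adjusted p 0.00117 by edgeR). Tbx21, which encodes T-bet of T helper 1 cells, rose from 166, 80.4 and 95.2 to 1108, 1533 and 1177 (log2 3.47 ± 0.25). Nfil3, Ahr and Prdm1, factors of effector and regulatory programs, rose by 4.28, 3.11 and 2.33, Bcl6, the factor of follicular helper cells, by 2.1, and Rora, a factor of T helper 17 cells, by 2.32. Gata3, the T helper 2 factor, had a log2 difference of 0.97, just below 2-fold. Zbtb7b, which encodes ThPOK and fixes the CD4 lineage, fell from 2755, 2828 and 2531 to 882, 759 and 934 (log2 -1.65 ± 0.09).

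Regulators of mRNA stability, cytokine signaling and cell death rose in part. Of 14 mRNA decay regulators 7 rose and 7 did not pass, including Zfp36, which binds AU-rich elements of cytokine mRNAs, from 1739, 1640.0 and 2069.6 to 34488, 32544 and 34454 (log2 4.22 ± 0.10), its paralog Zfp36l1 by 3.01 and Zc3h12a, the RNase Regnase-1, by 3.04. Of 12 SOCS and STAT genes 6 rose and 6 did not pass, led by the cytokine signaling inhibitors Socs1 and Cish at 3.66 and 3.53, with Socs3 at 2.38. Among 19 survival and death genes 12 rose and 1 fell (median 2.28). Gadd45b, a stress sensor that feeds p38, rose from 108, 79.3 and 128 to 16827, 16708 and 14802 (log2 7.26 ± 0.17), and the survival kinase gene Pim1 by 4.35. Both protective and lethal BCL2 family genes were among them, with Bcl2l1 (BCL-XL) at 2.60, Mcl1 at 1.13, Bcl2l11 (BIM) at 2.36 and Bbc3 (PUMA) at 1.13, and Bad fell by 1.54. Cdkn1a, the p21 inhibitor of cyclin-dependent kinases, rose from 10.9, 1.04 and 10.9 to 1391, 1870.4 and 1707 (log2 7.72 ± 0.26). The D cyclins that start the cell cycle were not raised: Ccnd2 and Ccnd3 were at -0.70 and -0.61, Cdk4 was at -0.90, and Ccnd1 fell by 1.46, with an adjusted p of 0.101 under the replicate block (edgeR). Of 14 proliferation genes 1 rose, Pcna by 1.06, and without N0 replicate 1 or 2 this was below 2-fold. Among 13 anergy ligases and negative regulators, 4 rose and 2 fell, with Cblb, an E3 ligase that limits TCR signaling, at 1.24 and Ubash3a, a phosphatase of TCR kinases, at -1.55. Beside the counts of these lists, 10.1% of all tested genes rose and 10.3% fell.

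Growth genes responded unevenly. Of 14 genes of the MYC network and polyamine synthesis 5 rose and 9 did not pass, with Odc1, the first enzyme of polyamine synthesis, going from 407, 428 and 460.1 to 7011, 7922 and 7900.1 (log2 4.14 ± 0.11). Of 10 amino acid transporters 7 rose and 3 did not pass (median 1.79, largest adjusted p 2.47e-06 by edgeR), among them the arginine transporter Slc7a1 at 2.70, the paired chains Slc7a5 and Slc3a2 of the leucine transporter at 2.41 and 2.28, and Slc38a2 at 2.34. Of 17 genes of glucose uptake and glycolysis 7 rose and 1 fell, led by hexokinase Hk2 at 3.21, lactate transporter Slc16a1 at 3.00 and glucose transporter Slc2a1 at 1.91. Of 20 ribosome biogenesis genes 10 rose and 1 fell (median 1.0), with nucleolar Gnl3 at 2.53, Ncl at 1.98, Nop56 at 1.84 and Npm1 at 1.12, and with library totals 4 rose and 2 fell. The 20 cytosolic ribosomal protein genes lay in a narrow band from 0.60 to 1.14 (median 0.95), 5 of them called, and with library totals the median was 0.37. Near-identical processed pseudogenes make the counts of these genes uncertain. Of 19 heat shock and unfolded protein response genes 9 rose and 10 did not pass, with Hspa5, the endoplasmic reticulum chaperone BiP, going from 4620.0, 4183 and 5127 to 24398, 25262 and 24693 (log2 2.42 ± 0.09), and the stress genes Sesn2 at 3.07 and Ddit3 at 1.46.

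Interferon genes split. Of 14 tested 4 rose and 4 fell (median -0.10, largest adjusted p 0.0454 by edgeR), against 10.1% and 10.3% of all tested genes. Irf1, an interferon regulatory factor and NF-kB target, rose from 3039, 2797 and 3138 to 30165, 28619.5 and 25416 (log2 3.23 ± 0.11), and the guanylate-binding protein gene Gbp4 by 1.71. The members that fell are known as targets of type I interferon. Ifit2 went from 969.8, 1082 and 1231 to 245, 278 and 302 (log2 -1.99 ± 0.17), Ifit1 fell by 1.48, Ifit3 by 1.23 and Usp18 by 1.18. The N0 values of Ifit3 were 128, 78.3 and 242 and its NPI values 43.7, 71.5 and 74.7, and its call was lost when any 1 of the NPI libraries was left out, without N0 replicate 1 and without N0 replicate 3, where its adjusted p was 0.212 (edgeR). Usp18 was below 2-fold without N0 replicate 3, and the adjusted p of Ifit1 was 0.158 under the replicate block. Of 12 genes that respond to glucocorticoids 5 rose and 7 did not pass, Errfi1 by 4.05, the clock gene Per1 by 3.37 and the kinase gene Sgk1 by 1.38, while Txnip, which limits glucose uptake, was at -0.91. Of 9 cytotoxic genes 2 rose, Gzmb by 3.46 and the granule proteoglycan Srgn by 3.97.

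**Figure D4:**
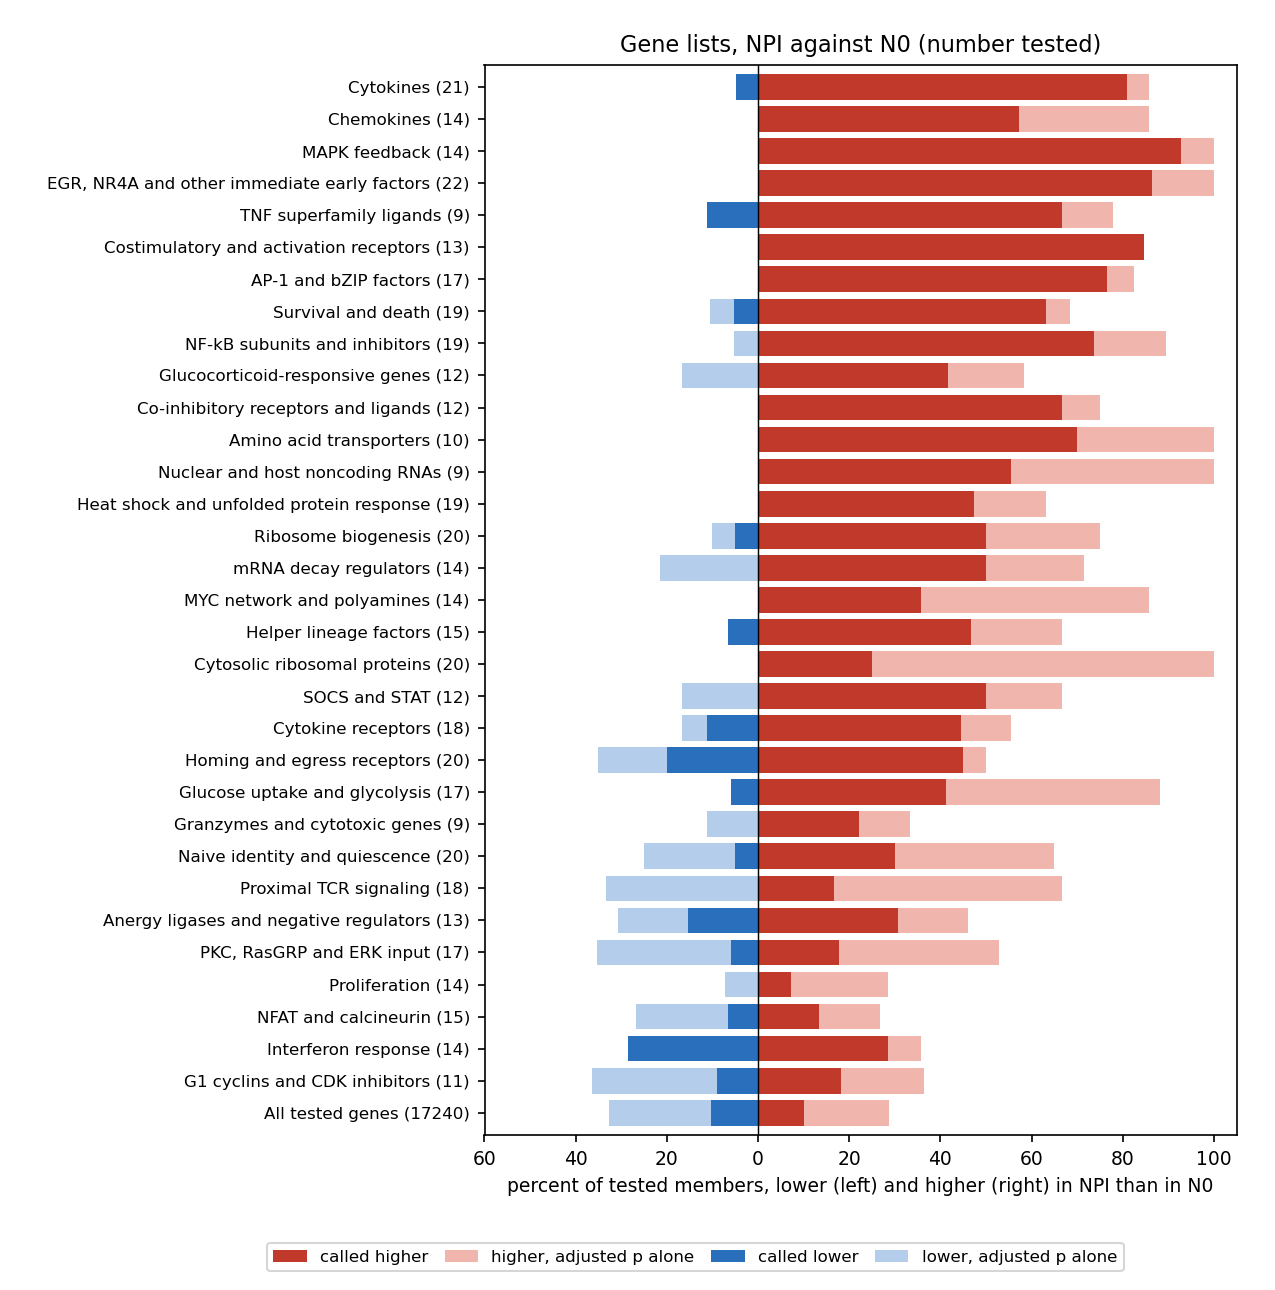
Percent of the tested members of each gene list (y axis, with the number tested) that were higher in NPI (x axis, right) or lower (left), dark where called and light where only the adjusted p was under 0.05, ordered by the median log2 fold change. Cytokines, chemokines and MAPK feedback stand at the top, and the lowest bar gives all 17240 tested genes.

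Over all lists, 238 of 489 distinct genes rose (48.7%) and 22 fell (4.5%). The lists were drawn up with earlier results of these data known, so these shares describe the lists and do not test them. Beyond the lists, the largest rises also held Gls2, a glutaminase, with no read in N0 and 110, 89 and 107 in NPI (at least 99.5-fold higher), and the zinc finger gene Plagl1, from 13.9, 3.13 and 6.94 to 1883, 1867 and 1978 (log2 7.87 ± 0.34). Gls2 shares 97 exonic bases with Spryd4 on the opposite strand, so its reads cannot be assigned with certainty.

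Some noncoding transcripts rose as well, although of the genes annotated as lincRNA 37 rose and 40 fell. The host transcript of miR-155, a regulator of T cell activation, rose from 15.8, 16.7 and 14.9 to 1609, 2376 and 2100.0 (log2 6.99 ± 0.19), and that of the miR-17-92 cluster, Mir17hg, by 2.32. Reads at the Mir132 locus were 1, 0 and 0 in N0 and 91, 75 and 86 in NPI. These are reads of long transcripts in ribosomal RNA-depleted libraries and do not measure mature miRNAs. Of 9 nuclear and host noncoding RNAs 5 rose and 4 did not pass. Malat1, a nuclear RNA, had the highest normalized count of all genes in both groups, not scaled for length, and went from 237971, 256288 and 240401 to 512101, 460856 and 480673, a log2 difference of 0.98 ± 0.09. The RNA polymerase III transcripts 7SK and RNase MRP RNA were among the 10 largest gains, at 2.14 and 1.64, and the latter shares 124 bases with Ccdc107 on the opposite strand, so its reads are uncertain.

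The 2 steepest falls were in genes of platelets, and falls of T cell genes were milder. Ppbp, a platelet chemokine, had 51, 224 and 327 reads in N0 and 0, 0 and 1 in NPI, lower by a ratio of 617 (95% counting interval 110.3 to 24407). Tubb1, the platelet tubulin, had 30, 74 and 123 and 0, 0 and 1 reads, a ratio of 233 (95% counting interval 41.3 to 9228). The iron exporter gene Slc40a1, known from macrophages, went from 85.2, 69.9 and 156 to 0, 2.20 and 1.70 (log2 -6.18 ± 1.21), and Alox12 and Rgs18, which platelets also express, fell by 4.04 and 3.68. The sum of the 5 platelet markers, which include Ppbp itself, was 190.2 to 732 in N0 and 70.5 to 86.3 in NPI. The part of platelets in these falls was not tested. Among genes of T cells, Art2b, a surface ADP-ribosyltransferase, fell from 513, 262 and 325 to 31.2, 33.0 and 44.1 (log2 -3.33 ± 0.22), and P2rx7, the ATP receptor that it modifies, by 1.41. The 10 largest losses in normalized count were in genes with N0 means of 5028 to 13959, with log2 changes from -2.02 to -1.0. Ms4a6b and Ms4a4b, tetraspan proteins of T cells, went from 8878, 9172 and 10857 to 3136, 3305 and 3827 and from 7157, 7672 and 8767 to 3089, 3769 and 3781. Fam78a fell from 5098, 5907 and 5181 to 1396, 1166 and 1422, and the adenylyl cyclase gene Adcy7 by 1.26.

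To find where the naive response differs from that of tolerized cells, the difference of both responses, TPI over T0 against NPI over N0, was tested as an interaction. Sex is not balanced in this comparison. Y-linked genes had 6604, 6352 and 33 reads in T0 and 7904 to 11710 in TPI, while in naive cells sex moved fully with PI. Cell state and sex can therefore not be fully told apart in the interaction. By a 2-fold difference of responses, 301 genes (1.75%) were called more positive in tolerized cells and 253 (1.47%) more positive in naive cells, and with library totals 154 and 609. Among genes called in the naive response, the differences furthest on the tolerized side included the antibody gene Ighg2c (log2 3.04 ± 0.96), Tex15 (log2 2.59 ± 0.47), Zfp703 (log2 2.38 ± 0.33) and Stk38l (log2 2.31 ± 0.20). Zfp703, a transcriptional corepressor, rose in naive cells from 134, 166 and 141 to 1450.0, 1425 and 1401, and was at 130.0, 178 and 263 in T0 and 11976, 8479.7 and 8391 in TPI. On the naive side were the myeloid receptor genes Cd33 (log2 -3.02 ± 0.70) and Clec4e (log2 -2.08 ± 0.68), the sphingomyelin synthase gene Sgms2 (log2 -2.35 ± 0.51), the death gene Bbc3 (log2 -2.17 ± 0.24) and Gm16534 (log2 -2.04 ± 0.53), which shares exons with Fam78a. Cd33 rose in naive cells from 17.8, 16.7 and 5.95 to 157, 200.1 and 177 and was at 84.9, 105.1 and 42.2 in T0 and 59.8, 164 and 155 in TPI. Bbc3 rose in naive cells from 76.3, 96.0 and 80.3 to 197, 178 and 180.0 and was at 195, 193 and 239.8 in T0 and 73.5, 122 and 112 in TPI. The macrophage and monocyte marker sum was 1831 to 2271 in T0 and 980.1 to 1147 in TPI, and that of the B cell markers 699 to 3919 and 1133 to 2454. Their part in the values of Cd33, Clec4e and Ighg2c was not tested. The calls of Clec4e and Ighg2c were kept in 8 and 5 of 19 alternatives, and both were lost with the sex term.

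Parts of the activation program responded more positively in tolerized cells than in naive cells. Of the 19 NF-kB genes 4 were called on the tolerized side, namely Relb (log2 1.57 ± 0.12), Nfkb2 (log2 1.34 ± 0.12), Traf1, an adaptor of TNF receptors (log2 1.28 ± 0.17), and Rela (log2 1.04 ± 0.09). Of the 22 immediate early factors 6 were, including Nr4a3 (log2 2.02 ± 0.22), Egr2 (log2 1.53 ± 0.33) and Nab2 (log2 1.51 ± 0.14), and Ier3, a survival factor of early response, was called on the naive side (log2 -1.42 ± 0.33). Nr4a3 was at 129, 185 and 161 in T0 and 139003, 132768 and 139378 in TPI, against 287, 225 and 324 in N0 and 50929.6, 66020.5 and 61686 in NPI. Of 9 TNF superfamily ligands 4 were called on the tolerized side, among them Tnfsf8 (log2 1.76 ± 0.30) and the X-linked Cd40lg (log2 1.32 ± 0.20), and so were the signaling genes Rasgrp1 (log2 1.27 ± 0.12), Bcl10 (log2 1.25 ± 0.11) and Lcp2 (log2 1.29 ± 0.12). On the naive side were Irf1 (log2 -1.27 ± 0.14), S1pr1 (log2 -1.44 ± 0.16), Klf2 (log2 -1.48 ± 0.41) and Txnip (log2 -1.84 ± 0.42). S1pr1 was at 5388, 5406 and 6372 in T0 and 1754, 1607 and 1707 in TPI. The interaction shifted by a median of -0.220 with library totals, and of the genes just named Rela was then not called (0.82). Relb, Nfkb2, Traf1, Nr4a3, Nab2, Ier3, Tnfsf8, Cd40lg, Rasgrp1, Bcl10, Lcp2, Irf1, S1pr1 and Txnip kept their call in all 19 alternatives run.

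Cytokine genes were also compared between both cell states. Of 21 tested, 1 was called in the interaction, Csf1 on the naive side (log2 -1.03 ± 0.30), and of 14 chemokines 1, Cxcl2 on the same side (log2 -1.86 ± 0.58). Of all tested genes 1.75% were called on the tolerized side and 1.47% on the naive side, and DESeq2 called 2 of the 21 cytokine genes on each side. The call of Csf1 was kept in 10 of 19 alternatives, and that of Cxcl2 in 15. A gene below the threshold is not thereby shown to respond alike. The interaction was 1.84 ± 1.09 for Il2 and -0.56 ± 0.72 for Ifng, so differences of about that size could not be resolved. Levels could still lie apart where the interaction was small. Il10 was at 463, 582 and 535 in NPI and 22147, 12099.5 and 14645 in TPI, and at 2.97, 0 and 1.98 in N0 and 81.4, 89.2 and 61.4 in T0, with all tolerized libraries above all naive libraries both at rest and after PI, and an interaction of -0.48 ± 1.16.

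PI in culture and peptide in the mouse were also compared within naive cells, as NPI over NAg. This comparison differs in the agent and in culture, which cannot be told apart, and also in sex, since Y-linked genes had 16 to 35 reads and Xist 35082 to 44882 in NAg. NPI exceeded NAg at 2473 genes (14.3%) and was below it at 2265 (13.1%), and with the sex term at 2496 and 2195. Among genes called in the PI response, the largest differences in favour of PI were Gprc5b, Plau, Cxcr4, Fosb and Fos, and the log2 differences of the last 4 were 7.64, 6.54, 6.44 and 6.03. Gprc5b, a G-protein-coupled receptor gene, was at 48.9, 51.7 and 54.3 in NPI and had no read in NAg. Fos was at 113307, 106893 and 118625 with PI and 1251, 1283 and 2653 with peptide, and Plau, the urokinase gene, at 287, 532 and 412 and 1.2, 3.52 and 1.10. The fall of Gprc5b with PI was only -0.11 with the sex term. On the other side were Lipg, an endothelial lipase gene, at 53.0, 92.4 and 99.3 with PI and 1352, 2022 and 2334 with peptide, and the platelet genes Ppbp, Tubb1 and Alox12 with Slc40a1. Il2 was at 3878, 4870.2 and 4015 and 5024, 5268 and 3063, a difference of -0.07 ± 0.23 within the spread between libraries (adjusted p 0.819 by edgeR).

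Some lists lay apart between NPI and NAg, and others did not. Ribosome biogenesis genes were lower with PI in 19 of 20 (median log2 difference -2.15), with the RNA polymerase I subunit gene Polr1b at 783, 826 and 818 and 7807, 8317 and 8274 and Npm1 at 7365, 8094 and 7804 and 24069, 26274 and 25354. Genes of naive identity were higher with PI in 14 of 20 (median 1.87), and homing genes in 15 of 20 (median 2.0). Klf2, for example, was at 10619, 8294 and 9077 with PI and 400.3, 248 and 808 with peptide, and S1pr1 at 5163, 3977 and 5955 and 315, 408 and 378. Cytokines were higher with PI in 14 of 21 and lower in 2 (median 2.30), with Il17a at 1631, 2526 and 2120.4 and 77.9, 44.6 and 29.7, and with the sex term 9 were higher and 1 lower (median 1.44). MAPK feedback genes were higher in 11 of 14 and lower in 1, immediate early factors in 11 of 22 and 2, and NF-kB genes in 5 of 19 and 3. Costimulatory and activation receptors were higher in 4 of 13 and lower in 4 (median -0.097). Amino acid transporters were higher in 3 of 10 and lower in 4 (median -0.21). Of all tested genes 14.3% were higher and 13.1% lower.

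**Figure D5:**
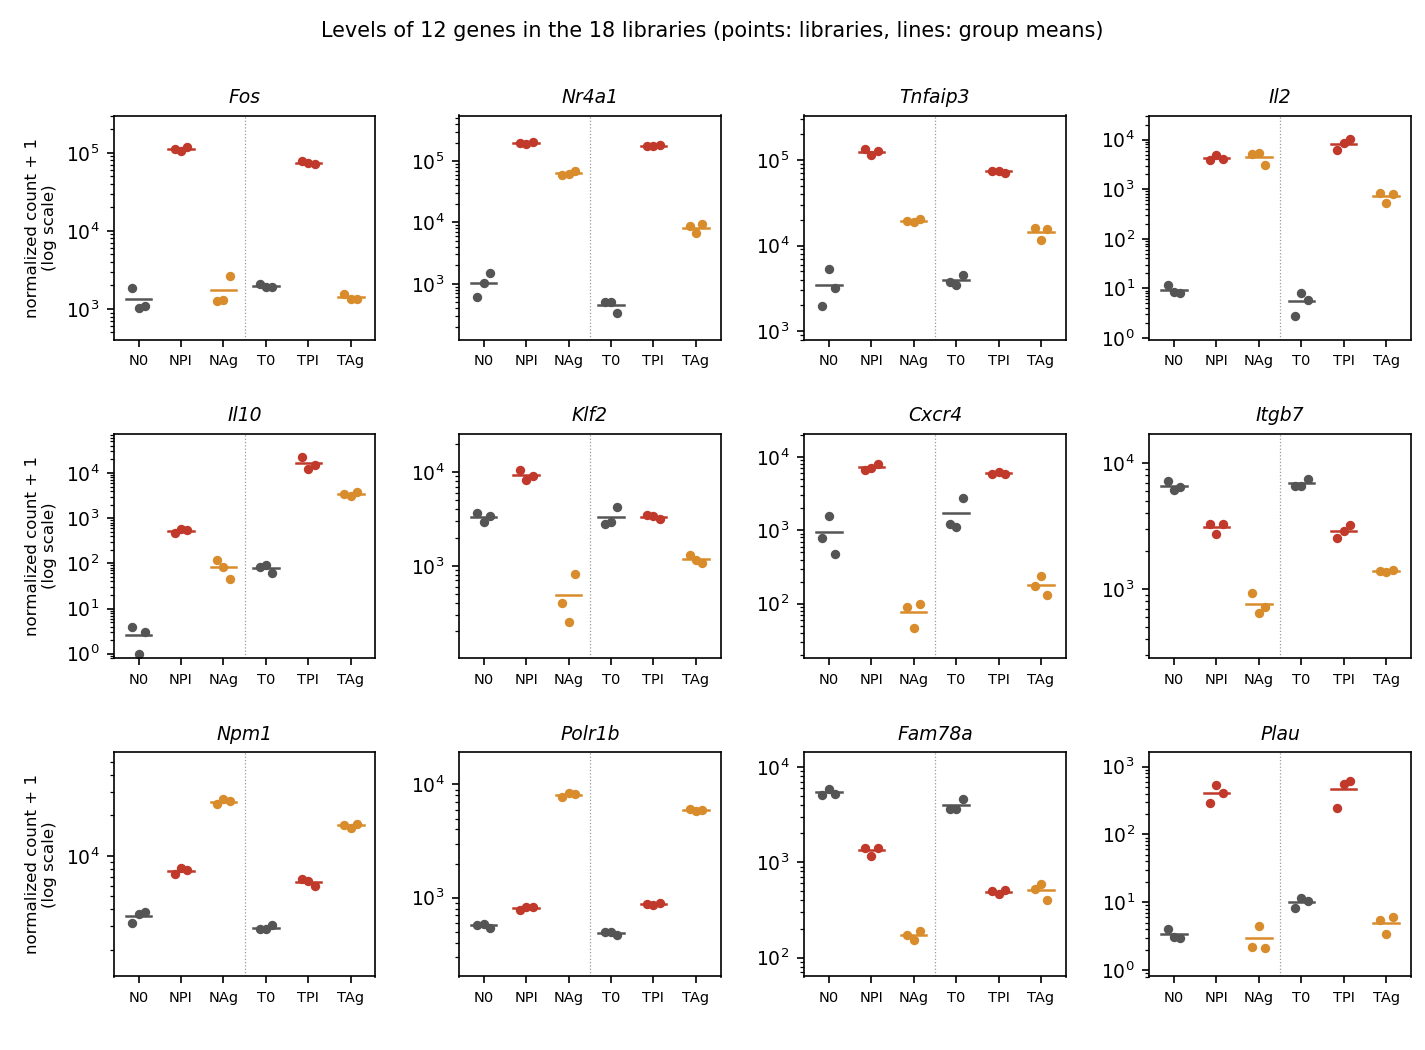
Normalized count plus 1 (y axis, log scale) of 12 genes in the 3 libraries of each group (x axis), with lines at group means, naive cells left of the dotted line and tolerized cells right of it. Fos and Plau are high in the PI groups alone among those shown, Npm1 and Polr1b are highest after peptide, and Klf2 and Cxcr4 are lowest in NAg.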

How the data were processed

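RNA-seq was measured in 18 libraries of mouse splenic CD4+ T cells, 6 groups of 3 biological replicates. The deposited values are raw counts of reads per gene, which the authors made by aligning paired-end reads to mm9 with TopHat2 2.1.1 and counting with HTSeq 0.9.1, per the labels, from ribosomal RNA-depleted libraries. The strand and overlap settings of the counting are not given in the sources used here, so reads of overlapping genes are uncertain, such as those of Fosl1, Jund, Nab2, Pim1, Cish, Txnip, Ikbkg, Gprc5b and Zfp36l1. Each file lists 37991 genes, of which 37205 matched the NCBIM37 annotation (GENCODE M1).

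Counts were scaled by TMM and fitted with edgeR 4.0.16 (R 4.3.3) as 6 group means over all 18 libraries, with robust quasi-likelihood F tests and Benjamini-Hochberg adjustment over the 17240 genes whose mean normalized count reached 3 in any of the groups. The contrasts were NPI against N0, the interaction with tolerized cells, and NPI against NAg. Motifs were searched on both strands of the 250 bases before each annotated start in the NCBIM37 genome, which gave windows for 13854 of 13856 tested protein-coding genes. Overlapping motifs were counted for each. The kB motif and the CArG box were searched as degenerate consensus sequences. Folds against a group without reads use a floor of 3 reads over the group, and ratios against 1 to 3 reads carry an exact 95% interval, both for counting error only.

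Named genes came from gene lists and from ranks, namely the 20 largest rises and falls, the 10 largest gains and losses in normalized count, the 5 largest noncoding rises and falls, and the 5 largest differences in each direction of both other contrasts. Genes on X and Y were left out of the ranks, and some genes that these rules would name are not reported here. The genes, lists and comparisons were chosen with earlier results of these data known. Alternatives were DESeq2 1.42.0, DESeq2 size factors, library totals, no filter, only the groups compared, the replicate number as a block, a sex term (over 1000 Y-linked reads), a call by both tools, no minimum level, and leaving out each library. The titles number the replicates, but same-numbered N0 and NPI libraries deviated from their group means with correlations of -0.275, -0.19 and -0.0704, so they were not taken as pairs. The fit was also run on simulated counts with equal numbers of raised and lowered genes. That simulation does not probe how the counts of called genes depend on the scaling.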

Additional observations from a re-analysis of the deposited data

Results flagged for a closer look

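The response to PI differed between naive and tolerized cells at 301 genes that were more positive in tolerized cells and 253 that were more positive in naive cells, by edgeR's interaction test at a 2-fold difference. With the sex term these counts were 281 and 215. The sex of the mice differed between N0 and NPI and was mixed in T0 but not in TPI, and beyond this fit its part was not tested.

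Among genes called in the naive response, the interaction was 3.04 on the log2 scale for Ighg2c, 2.59 for Tex15, 2.38 for Zfp703 and 2.31 for Stk38l, each more positive in tolerized cells. It was -3.02 for Cd33, -2.35 for Sgms2, -2.17 for Bbc3, -2.08 for Clec4e and -2.04 for Gm16534, each more positive in naive cells. Tex15, Zfp703, Stk38l, Cd33, Sgms2, Bbc3 and Gm16534 kept their call in all 19 alternatives run, whereas Clec4e kept it in 8 and Ighg2c in 5. Tex15, a gene known from meiotic cells, was at 14.9, 4.18 and 9.92 in N0 and 79.1, 91.3 and 84.0 in NPI, at 9.73, 10.6 and 17.3 in T0 and 693, 702 and 554 in TPI, and was higher still after peptide, at 319, 464 and 388 in NAg and 830.1, 1031 and 1046 in TAg. Stk38l, a kinase gene of the Hippo family, was at 279, 287 and 259.8 in N0 and 856, 884 and 895 in NPI, and at 211, 249 and 268 in T0 and 4849, 3378 and 3225 in TPI. Sgms2 was at 9.91, 3.13 and 2.97 in N0 and 136, 144 and 146 in NPI, and at 29.2, 38.9 and 26.9 in T0 and 162, 167 and 157 in TPI, so the PI groups were close and the resting groups lay apart. Gm16534 shares exons with Fam78a, and their reads cannot be told apart with certainty.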

How the results depend on the processing

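With library totals in place of TMM, log2 fold changes of NPI over N0 shifted by a median of -0.578, and 945 genes rose and 4027 fell, against 1736 and 1771. The interaction then gave 154 and 609, against 301 and 253, 20.2% on the tolerized side against 54.3%, and 56 list genes fell, against 22. With library totals Rasgrp1 was at -0.35, Lef1 at -0.27 and Polr1b at -0.07, where the TMM values were 0.23, 0.30 and 0.51, none of them called. The rises of Batf, Nfatc1, Bcl10, Malt1, Prkcd, Lcp2, Traf1, Il5, Ccl5, Lag3, Klf2, Mcl1, Bbc3, Npm1, Ddit3, Cblb, Sgk1 and Pcna were lost with that shift, and Cyld, Prkcq, Map2k1, Cd4, Cd3g, Themis, Ccnd2, Ccnd3, Cdk4 and Txnip passed as falls. Without the minimum level of 50, 2713 genes rose and 2767 fell, since low genes then count. DESeq2 gave 1792 and 1689, both tools combined 1790 and 1687, DESeq2 size factors 1792 and 1672, no filter 1730 and 1767, only the groups compared 1805 and 1640 and the sex term 1779 and 1684. For the interaction, only the groups compared gave 233 and 361, 39.2% on the tolerized side, and no minimum level 339 and 362. NPI against NAg gave 2036 and 2682 with library totals and 3669 and 3166 with no minimum level, against 2473 and 2265.

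Leaving out 1 library at a time gave 1640 to 1778 rises and 1699 to 1926 falls, 263 to 368 and 196 to 282 in the interaction, and 2429 to 2536 and 2238 to 2343 for NPI against NAg. Calls lost this way were Ifit3 (without any of the NPI libraries or N0 replicate 1 or 3), Usp18 and Alox12 (N0 replicate 3), Npm1 (N0 replicate 1), Pcna (N0 replicate 1 or 2), Gprc5b (N0 replicate 1 or NPI replicate 1), Il5 and Trac (NPI replicate 1) and Tecpr1 (NPI replicate 2). With the replicate number as a block, in a fit of only the groups compared, 1784 and 1648 genes rose and fell, 229 and 346 were called in the interaction (39.8% on the tolerized side) and 2312 and 2409 for NPI against NAg, and Ccl5, Tigit, Ccnd1, Ifit1, Gprc5b, Trac and Tecpr1 lost their call. The numbers were not taken to pair the samples. No same-numbered pair of N0 and NPI correlated positively, and N0 and NPI libraries came from mice of different sex. Whether same-numbered libraries shared a batch was not tested. The sex term ended the calls of Il7r, S1pr4, Ms4a4b, Ighg2c (adjusted p 0.0638 by edgeR), Gprc5b, Trac and Tecpr1, and made those of Rcan1, Gata3 and Malat1. Over the named genes, 1441 values outside the left-out libraries kept direction and call, 42 lost the call, 19 gained it and 3 changed sign. Changing the motif background or using RefSeq windows, an alternative added after the data were seen, moved some differences between motif shares and background. For 4 of genes that rose and 3 of genes that fell, the move exceeded the distance from the middle of the counting interval to its end.

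With 3 libraries a group, depths of 10758571 to 19878476 reads limit genes of few reads, and ratios against 1 to 3 reads have wide intervals. PI and culture cannot be told apart, and neither can sex and PI within naive cells. The lists were fixed with earlier results known.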

Other observations

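Gene families not on the lists were chosen after their values were seen, so no test is given. All 12 tested protein-coding genes of the mitochondrial genome rose, with a median log2 fold change of 2.67 and a range of 1.73 to 5.68, and mt-Co1, a cytochrome oxidase subunit, went from 47790.2, 48456 and 47829.9 normalized counts in N0 to 152154, 175976 and 154736 in NPI. The mitochondrial genome took 0.846 to 0.882% of the reads of N0 libraries and 2.14 to 2.58% of NPI libraries. Nuclear genes for mitochondrial proteins were counted too. Of 77 genes of mitochondrial ribosomal proteins 17 fell (22.1%, against 10.3% of all tested genes) and 3 rose (median -0.49), and of 31 complex I subunit genes 5 fell (16.1%, median -0.45).

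Zinc finger genes were the largest family among the falls that was looked at. Of 318 tested genes whose symbol is Zfp and a number, 126 fell (39.6%, against 10.3% of all tested genes) and 16 rose, with a median of -0.91. Reads of similar copies could be split between genes, so single members are uncertain. Zfp36 and Zfp703 were among those that rose. The Gimap genes, GTPases of lymphocyte survival, divided, with 3 of 8 falling and 2 rising. Areg, which encodes the growth factor amphiregulin, rose from 0.991, 2.09 and 0.992 to 308, 345 and 267 (7.71 ± 0.75 on the log2 scale).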
